A study of Saccharomyces cerevisiae with 4 samples.

Results

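MG.2 is a subcluster of budding yeast cells grown with mycophenolic acid (MPA) and guanine together, and it was described here against MG.1, the largest subcluster of the same library. The authors clustered the cells with SC3, a consensus clustering method for single cells, from the same UMI counts that are compared below. The members were thus chosen by their expression, and every difference between MG.2 and MG.1 is a description for which no test was made. MG.2 held 77 of the 268 cells of the MPA + Guanine library (28.7%, exact binomial 95% interval 23.4% to 34.6%) and of the 844 cells of the series. MG.1 held 166 cells, and the 25 cells of MG.3 were left out of the comparison.

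The series has 4 yeastDrop-Seq libraries of WT yeast of the haploid MATa strain BY4741, which lacks working HIS3, LEU2, MET15 and URA3 genes, and each library is its own treatment: DMSO, Guanine, MPA or MPA + Guanine. Cells grew for 18 h in CSM minimal medium with 2% glucose. Every agent was at 10 µM, and by the study's methods DMSO was in all media but that of Guanine. Each condition is a single culture in a single library, so that nothing could be checked against replicates, and 0 barcodes were shared by libraries.

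MPA blocks inosine monophosphate dehydrogenase, the enzyme that commits purine precursors to GMP, and added guanine can be salvaged to GMP without it. Yeast cells spend much of their transcription on ribosomal protein genes, whose mRNAs are known to rise and fall together with nutrient supply and stress. The proteasome genes share a transcription activator, Rpn4, and the genes for making amino acids share another, Gcn4, the activator of the amino-acid starvation response.

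The 77 MG.2 cells held 69653 UMIs and the 166 MG.1 cells held 193781. A MG.2 cell had between 344 and 1985 UMIs with a median of 807, and a MG.1 cell between 338 and 2072 with a median of 1097.5. UMIs were summed per gene over the cells of a subcluster and scaled to CPM, a share of all mRNA molecules counted and not an amount per cell. Less RNA of a gene per cell and more of all other RNA cannot be told apart on this scale. Of 3904 genes with UMIs in either subcluster, 1113 had at least 50 UMIs in both together and entered the comparison. They took 81.0% of the UMIs of MG.2 and 75.4% of those of MG.1. The threshold fell in a dense part of the table, with 26 genes at exactly 50 UMIs and 24 at 49. Ratios are log2 of CPM in MG.2 over CPM in MG.1, with exact 95% intervals that cover counting error only.

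At least 2-fold higher in MG.2 were 62 genes, which is 5.57% of the genes compared, and 221 genes (19.9%) were at least 2-fold lower. MG.1 held 193781 UMIs and MG.2 69653, so a gene high in MG.1 reached 50 UMIs at a lower CPM. The minimum thus let in genes high in MG.1 more easily, and these counts are not an even measure of direction. The median log2 ratio of all 1113 genes was -0.21, and without ribosomal protein genes it was -0.32. The lists below are read beside the value of all genes unless the other is named. After TMM scaling, which sets most genes level, the median of all genes was -0.02 and 116 genes were higher against 164 lower. The surplus of lower genes was smaller or absent with thinned cells, with cells of limited depth and with a higher minimum of UMIs. Fewer genes were compared in each of these settings. The higher minimum changed the choice of genes and left the depth of the cells as it was. In the settings with thinned cells or limited depth, depth and the choice of genes cannot be told apart. With every cell thinned to 400 UMIs, 49 genes were higher and 47 lower of 365 with at least 50 UMIs, and the median was 0.22. With cells of 400 to 1200 UMIs, 63 were higher and 81 lower of 501. With at least 100 UMIs a gene, 49 were higher and 75 lower of 515. Over all 1113 genes, 448 ratios were above 0 and 665 below. Among the 62 genes were 36 of the 126 cytosolic ribosomal protein genes compared and 26 of the 987 others. Among the 221 were 3 ribosomal protein genes and 218 others, of which many were scarce: 120 of the 221 had under 10 UMIs in MG.2.

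**Figure D1:**
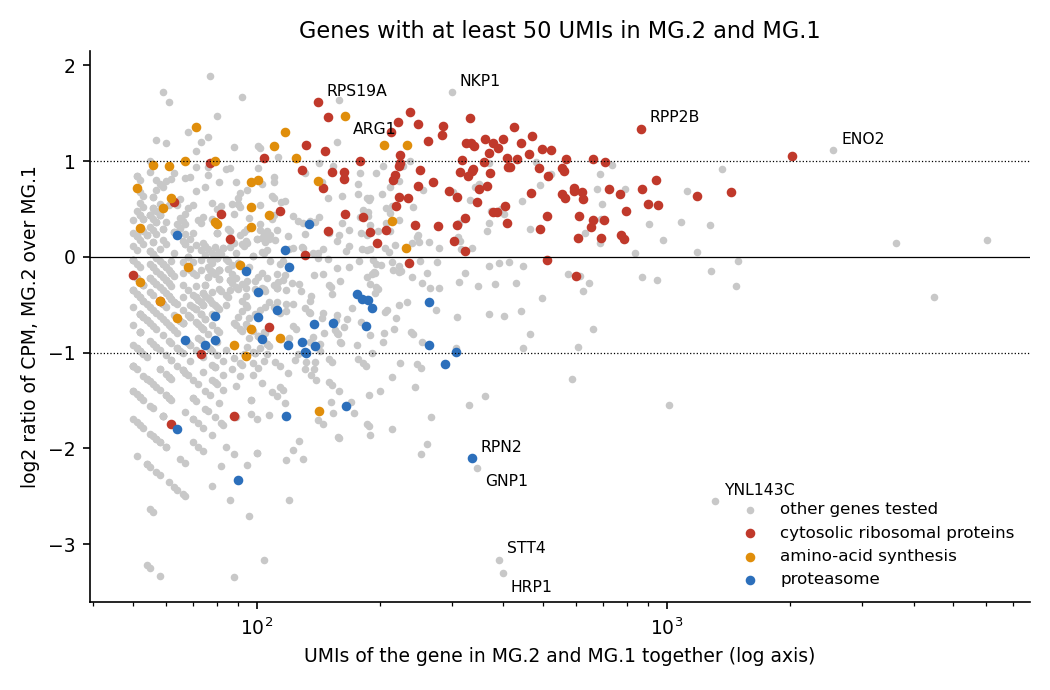
Each point is a gene with at least 50 UMIs, with its UMIs in MG.2 and MG.1 together on the horizontal log axis and its log2 ratio of CPM on the vertical axis, and dotted lines mark 2-fold. The red ribosomal protein genes lie mostly above 0, the blue proteasome genes mostly below, and of the genes named in the plot HRP1, STT4 and YNL143C stand lowest.

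The sequences that the account of these genes turns on are of 2 kinds. The first are stretches of coding sequence, shown because many genes that were lower in MG.2 hold runs rich in A, to which oligo-dT primers of the kind used to capture mRNA can also anneal. For each gene the 20 bases in a row with the most A stand in capitals with their flanks, read 5′ to 3′ on the coding strand of the R64 genome from RefSeq. The first 5 genes were lower in MG.2 and the last 3 higher, and the genes were picked after their values were seen.
YNL143C: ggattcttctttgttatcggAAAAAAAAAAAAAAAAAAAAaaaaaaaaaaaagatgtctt
AIP5: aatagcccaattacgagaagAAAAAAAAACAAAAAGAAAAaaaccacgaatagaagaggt
HRP1: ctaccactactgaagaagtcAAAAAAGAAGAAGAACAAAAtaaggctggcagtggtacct
RPN2: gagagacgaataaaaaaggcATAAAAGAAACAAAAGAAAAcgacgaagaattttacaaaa
STH1: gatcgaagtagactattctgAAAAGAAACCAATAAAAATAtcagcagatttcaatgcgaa
ENO2: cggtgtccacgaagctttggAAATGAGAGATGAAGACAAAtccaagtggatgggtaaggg
RPS19A: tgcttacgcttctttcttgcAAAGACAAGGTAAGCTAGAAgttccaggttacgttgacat
ILV6: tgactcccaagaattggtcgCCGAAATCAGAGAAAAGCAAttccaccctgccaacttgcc
The windows hold 20 A in YNL143C, 18 in AIP5, 16 in HRP1, 16 in RPN2 and 15 in STH1, against 12 in ENO2, 11 in RPS19A and 11 in ILV6. These genes show the contrast at its widest. RPP2B and RPL21A, which were also higher in MG.2, hold 14 and 13. Outside the ribosome, the median was 14 A for genes at least 2-fold lower, 13 for those higher and 13 for those past 2-fold in neither direction. The stretch shown for HRP1 is at chrXV:87893-87952 on the plus strand and lies 1516 bases before the end of its coding sequence, and that of YNL143C is at chrXIV:357005-357064 on the minus strand.

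The second kind are sites before the coding start, shown because they stand before many members of gene groups described below. In capitals are the letters GGTGGCAAA, bound by Rpn4, before proteasome genes that were lower in MG.2, and the letters TGACTC, bound by Gcn4, before genes of amino-acid synthesis that were higher, each on either strand.
RPN2: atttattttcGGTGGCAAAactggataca
RPT4: aatagtggaaTTTGCCACCgaagggaaag
RPN7: ataagttaagTTTGCCACCcattgaggat
ARG1: ccgtatggaaGAGTCAtttaaaggca
HOM2: aagcattgatTGACTCattttcctct
ILV6: accgttatcgTGACTCactttctttc
LYS12: attcttaagaTGACTCtaattagagg
The site before RPN2 is at chrIX:220801-220829, and that before ARG1 at chrXV:218927-218952, which starts its 6 letters 274 bases before the coding start.

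Ribosomal protein mRNAs took a larger share of the molecules in MG.2 than in MG.1. All 136 genes of the cytosolic ribosome together stood at 272106 CPM in MG.2 (exact Poisson interval 268246 to 276008) and at 162968 in MG.1 (161175 to 164775). Of the 126 genes compared, 117 had a ratio above 0, 36 were at least 2-fold higher and 3 at least 2-fold lower, with a median log2 ratio of 0.73 against -0.21 for all genes. The 53 genes of the small subunit and the 68 of the large subunit had nearly the same median, 0.72 and 0.72. The other 5 genes encode the stalk, the arm of acidic proteins that recruits elongation factors, and their median was 1.02.

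Within the stalk, RPP2B had 412 UMIs in MG.2 and 453 in MG.1, or 5915 against 2338 CPM, a log2 ratio of 1.34 (1.14 to 1.54). RPP0, the base on which the stalk is built, stood at 1.19 and RPP2A at 1.02, whereas RPP1A stood at 0.23 (0.00 to 0.46). The stalk genes were thus not evenly higher. RPS19A had the highest ratio of the small subunit, with 74 against 67 UMIs and a log2 ratio of 1.62, and was found in 43 of 77 MG.2 cells and 51 of 166 MG.1 cells. RPL21A had the highest of the large subunit, with 120 against 117 UMIs and 1.51 (1.13 to 1.89). RPL41A, which encodes the shortest protein of the ribosome, had the most UMIs among these genes past 2-fold, at 12419 against 5991 CPM and a ratio of 1.05 (0.92 to 1.18).

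The 3 exceptions were genes of few UMIs. RPS20, a single-copy gene of the small subunit, had 6 UMIs in MG.2 and 56 in MG.1, with a log2 ratio of -1.75 (-3.25 to -0.53). RPL15B had 9 and 79 (-1.66, -2.84 to -0.66), and RPS9A had 11 and 62 (-1.02, -2.09 to -0.08). Both of the latter have a more abundant copy elsewhere in the genome that was higher in MG.2: RPL15A stood at 1.11 and RPS9B at 0.53.

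Most ribosomal proteins of yeast are encoded by such pairs. Of 51 pairs with both genes compared, 44 had both copies above 0, 7 had copies on opposite sides and 0 had both below. In 12 pairs the intervals of the copies did not overlap. The widest gap was that of RPL15, whose A copy took 96.2% of the UMIs of the pair in MG.2 and 78.8% in MG.1. For RPS4 the order was the reverse, with a log2 ratio of 0.33 for RPS4A and 1.36 for RPS4B. In 44 of the pairs the coding sequences are at least 90% identical, and how reads that fit both copies were assigned is not given in the sources used here, so that the split within a pair is uncertain.

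The study named 16 genes as markers of MG.2, mostly of the ribosome. All 16 had ratios above 0, 10 of them past 2-fold, with a median of 1.16, and since they were picked on these same cells they are not independent evidence of a direction. A further list holds genes picked for MG.2 against the other subclusters. Of its 14 genes, 9 stood above 0 and 5 below against MG.1, with a median of 0.16. Past 2-fold were 2 each way, beside 5.57% higher and 19.9% lower over all genes.

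Genes whose products work on the ribosome went with it in part. Of 7 ribosome-associated genes compared, 6 had ratios above 0, with a median of 0.73 and 0 past 2-fold. TMA19, which encodes a protein bound to translating ribosomes, stood at 0.87 (0.64 to 1.09), and ASC1, a protein of the small subunit that takes part in signaling, at 0.99 (0.72 to 1.26). The 7 elongation factor genes had a median of 0.59. By contrast, the 42 genes of ribosome biogenesis, which process ribosomal RNA and build the subunits, had a median of -0.16, close to that of all genes, with 0 past 2-fold higher and 7 lower, a share below the 19.9% of all genes. The 13 initiation factor genes stood likewise at -0.16.

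**Figure D2:**
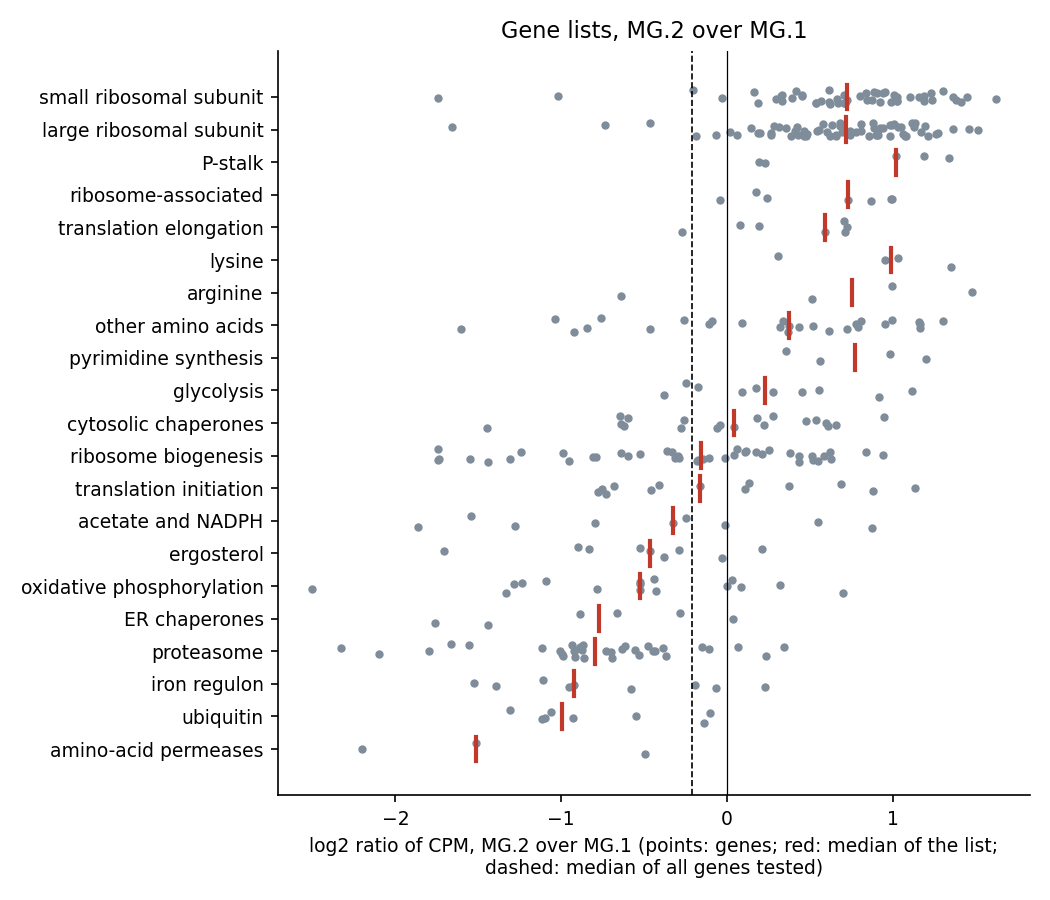
The log2 ratio of CPM of MG.2 over MG.1 is plotted for the genes of 21 lists, 1 point a gene, with the median of each list as a red bar and the median of all 1113 genes as a dashed line. The bars run from 1.02 for the P-stalk and 0.99 for lysine synthesis to -0.80 for the proteasome and -1.51 for the amino-acid permeases.

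The difference in ribosomal protein mRNA was one of most cells and not of a few. Over the cells of MG.2 the share of UMIs on these genes had a median of 26.9%, quartiles of 23.2% and 31.8% and a range of 8.45% to 47.6%. Over MG.1 cells the median was 15.6%, with quartiles of 11.9% and 19.3% and a range of 1.86% to 31.6%. Of the MG.2 cells, 5 of 77 lay below the MG.1 median, and 10 of 166 MG.1 cells lay above the MG.2 median. The ranges overlapped widely, however, and 57 MG.2 cells lay within the range of MG.1, with the other 20 above it. The separation is part of what the clustering used and carries no weight as evidence of distinct types.

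Depth differed between the subclusters and was set beside this share. With each cell thinned to 400 UMIs, which left 75 MG.2 and 163 MG.1 cells, the medians were 26.5% and 15%. In 6 bins of depth the median of MG.2 lay between 19.2% and 32.6% and that of MG.1 between 12.9% and 17.9%, and MG.2 was the higher in each bin. The smallest gap was in the 5 MG.2 cells with at least 1600 UMIs, at 19.2% against 16.4% in 35 MG.1 cells. Within MG.2, the rank correlation of the share with the UMIs of the cell was 0.03 over 77 cells, as a description of cells from a single library. Scrublet, which scores cells against simulated doublets, called 0 of the 77 MG.2 cells and 11 of the 166 MG.1 cells, and no cell was removed.

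Beside the subclusters of the other libraries MG.2 lay at or near the lower end for this share. The median over cells was 36.2% in DMSO.1, 29.1% in DMSO.2, 38.5% in Guanine.1, 35.5% in Guanine.2 and 30% in MPA.1, all above that of MG.2, and it was 5.91% in MG.3. The order against DMSO.2 depended on the measure. The mean over cells was 27.3% in MG.2 and 26.6% in DMSO.2, and the summed level was 272106 CPM in MG.2 and 258757 in DMSO.2. Each treatment was 1 library, so the treatment and its library cannot be told apart.

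**Figure D3:**
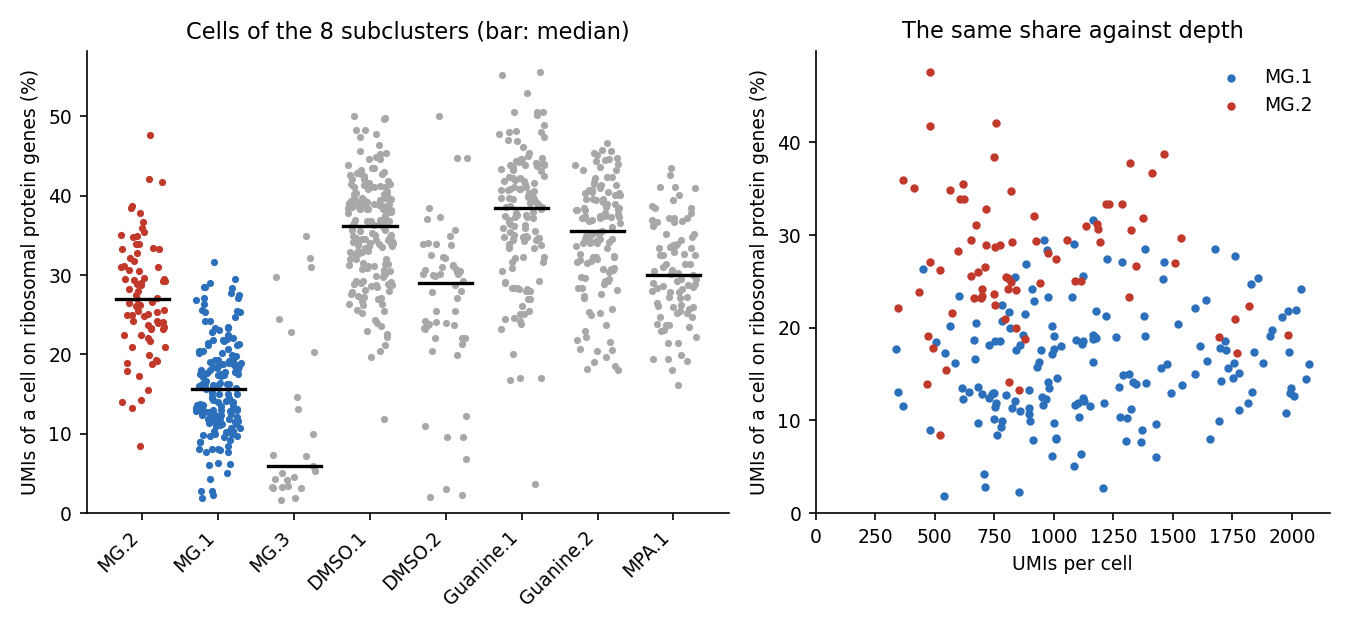
Left, the percentage of each cell's UMIs that fell on ribosomal protein genes, by subcluster, with 1 point a cell and the median as a bar. Right, the same share against the UMIs of the cell for MG.2 (red) and MG.1 (blue), where MG.2, with a median of 26.9%, lies above MG.1, with 15.6%, across most of the range of depth.

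On the map that the authors deposited, MG.2 cells had neighbors from several groups. On the first principal component the median was -0.33 for MG.2 and 9.69 for MG.1. Of the 15 nearest cells of a MG.2 cell on the UMAP, 45.1% were on average MG.2 cells, 17.7% MG.1 cells, 15.9% Guanine.1 cells and 11.9% Guanine.2 cells, with 0.0866% from MPA.1. These groups made up 9.12%, 19.7%, 16.0%, 14.6% and 10.1% of all cells. A MG.1 cell had 83.5% MG.1 cells among its neighbors. The authors also clustered the 4 libraries together into 4 groups, and these did not separate the subclusters: 40 of 77 MG.2 cells (51.9%) and 87 of 166 MG.1 cells (52.4%) fell in the same merged cluster. The MG.2 cells of the 4 merged clusters had median ribosomal protein shares between 25.1% and 30.4%.

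Several genes of amino-acid synthesis were higher in MG.2, though not those of sulfur amino acids. ARG1 encodes argininosuccinate synthetase, a late enzyme of arginine synthesis. It had 82 UMIs in each subcluster, or 1177 against 423 CPM, a log2 ratio of 1.48 (1.02 to 1.94), and was found in 30 of 77 MG.2 cells and 43 of 166 MG.1 cells. HOM2, of the common path to threonine and methionine, had 104 and 129 UMIs and a ratio of 1.16 (0.78 to 1.55). ILV6, the regulatory subunit for branched-chain amino acids, had 91 and 113 UMIs and a ratio of 1.16 (0.75 to 1.58). The lysine genes LYS12 and LYS20 stood at 1.35 and 1.03, HIS1 of histidine synthesis at 1.16, and ARO2 of aromatic amino acids at 1.30.

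The counts of this paragraph are read beside the 5.57% of all genes past 2-fold higher and the 19.9% past 2-fold lower. As lists, the 4 lysine genes compared had a median of 0.99 with 2 past 2-fold higher, the 4 arginine genes 0.75 with 1, and the 27 other genes of amino-acid synthesis 0.37 with 4 higher and 2 lower. The 2 lower genes were ASN1, an asparagine synthetase, at -1.61 with 15 against 127 UMIs, and SER33, of serine synthesis, at -1.04. The 12 genes of sulfur metabolism, which make methionine and cysteine, had a median of -0.36, close to the -0.32 of genes outside the ribosome. Of these 12, 9 were below 0, 0 were past 2-fold higher and 1 was lower, MET10 of sulfite reductase, at -1.14. HIS3 is deleted in part in BY4741, and the UMIs counted on it stood at 1.16 with 45 against 56. Of the genes that bring amino acids into the cell, 3 had enough UMIs to be compared. GNP1, a permease for glutamine, had 25 UMIs in MG.2 and 320 in MG.1, 359 against 1651 CPM, with a ratio of -2.20 (-2.85 to -1.61), and BAP2, for branched-chain amino acids, stood at -1.51. SAM3, for S-adenosylmethionine, stood at -0.49 (-1.21 to 0.17).

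Upstream of the genes higher in MG.2 other than those of the ribosome, 10 named motifs were searched, of which Gcn4, Gcr1 and Yap1 letters were more frequent than over all genes by the widest margins. The Gcn4 letters TGACTC were present within 300 bases before the coding start, on either strand, for 11 of the 23 such genes with an annotated coding sequence (47.8%), against 9.50% of all genes compared and 7.76% of all 6008 annotated genes. The letters CTTCC of Gcr1, an activator of glycolytic genes, were present for 16 of the 23 (69.6%, against 49% of all genes compared), and TTACTAA of Yap1, an activator of the oxidant response, for 17.4% against 8.68%. The 11 genes with Gcn4 letters were ADH5, ARG1, BOP2, GGC1, HIS1, HIS3, HOM2, ILV6, LYS12, TMT1 and YER010C. Taken over all genes other than those of the ribosome, the 101 genes with the letters had a median log2 ratio of -0.11, with 11 past 2-fold higher and 18 lower, and the 868 without them -0.36, with 12 and 198. A match of 6 letters is a description of the sequence, and binding was not measured.

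The level of these genes in MG.2 was not the highest in the series. The arginine list summed to 2383 CPM in MG.2 and 1331 in MG.1, and to 6770 in Guanine.2, 3441 in DMSO.2, 1328 in Guanine.1, 640.2 in DMSO.1 and 360.0 in MPA.1. ARG1 itself stood at 3597 CPM in Guanine.2 and 1486 in DMSO.2. In the DMSO and Guanine libraries, therefore, the second subcluster also had the higher level of these genes. Over genes, however, the ratio of MG.2 to MG.1 had a rank correlation of 0.23 with that of DMSO.1, the first subcluster, to DMSO.2 (904 genes) and of 0.04 with that of Guanine.1 to Guanine.2 (668 genes). Without ribosomal protein genes these were 0.11 (778 genes) and -0.01 (544 genes). For DMSO, then, the sign paired MG.2 with the first subcluster and not the second. Genes are not replicates, and these values describe the libraries.

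Of the enzymes of glycolysis, enolase was past 2-fold. ENO2, the main enolase of glucose-grown cells, had 1112 UMIs in MG.2 and 1430 in MG.1, or 15965 against 7380 CPM, with a ratio of 1.11 (0.999 to 1.23). It was found in 77 of 77 MG.2 cells and 155 of 166 MG.1 cells. ENO1, a near copy with 29 and 59 UMIs, stood at a log2 ratio of 0.45 with an interval that spanned 0, and the split of reads between both is uncertain. A near copy was found for 31 of the 62 higher genes and 5 of the 221 lower. Ribosomal protein genes were 36 of the 62 and 3 of the 221, and 44 of their 51 pairs are near copies. The share over all genes compared is not given here. FBA1, the aldolase, stood at 0.92, whereas TDH3, the most abundant of these mRNAs, stood at 0.17 and TDH2 at -0.18. The 10 genes compared summed with the rest of their list to 57715 CPM in MG.2, above every other subcluster, from 22233 in MG.3 to 52825 in DMSO.1, and to 41645 in MG.1. ADH1, the fermenting alcohol dehydrogenase, stood at 0.69 and PDC1, which feeds it, at -0.30.

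Several enzymes on routes away from ethanol were lower. The 9 genes of their list had a median of -0.32 with 3 past 2-fold lower (19.9% over all genes). That median was the same as the -0.32 of all compared genes other than those of the ribosome. ALD6, the cytosolic aldehyde dehydrogenase that makes acetate and NADPH, had 111 UMIs in MG.2 and 902 in MG.1, or 1594 against 4655 CPM. ZWF1, the entry enzyme of the pentose phosphate path, had 17 and 172 and a ratio of -1.86 (-2.68 to -1.14), and ALD4, the mitochondrial aldehyde dehydrogenase, stood at -1.28. The list of acetate and NADPH enzymes summed to 5441 CPM in MG.2 and 10935 in MG.1, against 3833 to 5745 in the other 6 subclusters. For this list MG.1 was the subcluster that stood apart.

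GGC1, which encodes the carrier of GTP and GDP across the inner membrane of mitochondria, had 44 UMIs in MG.2 and 33 in MG.1, with a log2 ratio of 1.89 (1.21 to 2.59). It was chosen for mention after its values were seen, as were NTF2 and TMT1 below. Its level was 632 CPM in MG.2 and 170 in MG.1, and 706 in Guanine.2 and 515 in DMSO.2. Of the isozymes of inosine monophosphate dehydrogenase, IMD3 stood at 0.86 (0.15 to 1.55), IMD2 at 0.55 (-0.13 to 1.20) and IMD4 at -0.04 (-0.69 to 0.57). With 30 or 31 UMIs each in MG.2, the intervals of these 3 genes overlapped.

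URA1, of pyrimidine synthesis, stood at 1.20 with 71 and 86 UMIs, and the 4 genes of its list had a median of 0.77. NTF2, which returns the GTPase Ran to the nucleus, had 49 and 43 UMIs (1.66, 1.04 to 2.29), and TMT1, a methyltransferase for trans-aconitate, 32 and 29 (1.62, 0.85 to 2.40).

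Some genes higher in MG.2 have a neighbor on the opposite strand, and the strand counted is not given in the sources used here. NKP1, which encodes a protein of the kinetochore, stood highest in MG.2 where at least 100 UMIs were counted, with 162 against 137 UMIs and a log2 ratio of 1.72 (1.38 to 2.06). It lies at chrIV:1239960-1240676 on the minus strand, and its end faces that of RPP2B, at chrIV:1239492-1239824 on the plus strand, across 135 bases. ARO2 likewise faces RPL9A (1.36) across 224 bases, and GLR1 (1.04) faces RPS6A (1.41) across 337. In each of these pairs both genes were higher in MG.2, and reads of a gene and its neighbor could not be told apart where transcripts run past their ends. The IDs YNL303W, YPR044C and YOR203W, with ratios of 1.64, 1.72 and 1.48, are not in the annotation used.

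The proteasome, which degrades proteins marked with ubiquitin, was lower in MG.2 as a sum. Its genes summed to 12548 CPM in MG.2 (11730 to 13408) and 21395 in MG.1 (20749 to 22057). Of 34 genes compared, 31 had ratios below 0, with a median of -0.80 against -0.21 for all genes. At least 2-fold lower were 7, a share close to the 19.9% of all genes, and 0 were higher. RPN4, the gene of the activator itself, had 6 UMIs in MG.2 and 84 in MG.1, with a ratio of -2.33. RPN2, a large scaffold in the base of the regulatory particle, had 26 and 310, or 373 against 1600 CPM, with a ratio of -2.10 (-2.74 to -1.52), and was found in 22 of 77 MG.2 cells and 132 of 166 MG.1 cells. At 400 UMIs per cell these shares of cells were 18.7% and 46.6%. RPT4, an ATPase of the base, stood at -1.80, RPN10, a ubiquitin receptor, at -1.67 and RPN7 at -1.55.

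The letters GGTGGCAAA were found before 26 of the 34 proteasome genes (76.5%), against 3.56% of all genes compared and 1.22% of all annotated genes, as is known for Rpn4 targets. They were found before 12 of 219 genes at least 2-fold lower in MG.2 (5.48%) and before 0 of the 23 genes higher outside the ribosome. The 39 genes with the letters had a median log2 ratio of -0.89, and since 26 of them are the proteasome genes above, this value largely restates theirs.

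The 8 genes of the ubiquitin list, which make ubiquitin or handle what it marks, all had ratios below 0, with 4 past 2-fold lower (19.9% over all genes) and a median of -0.996. Among them were UBI4, the stress-induced gene for ubiquitin, at -1.31 and CDC48, the segregase that pulls marked proteins free, at -1.12. Set beside the other subclusters, the proteasome level of MG.2 lay within their range, from 10484 CPM in Guanine.2 to 17337 in MPA.1. MG.1 lay above that range.

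Chaperones of the cytosol did not go with the proteasome. Their list summed to 28527 CPM in MG.2 (27286 to 29810) and 28470 in MG.1 (27724 to 29232). The median log2 ratio was 0.04 over 19 genes, with 0 past 2-fold higher and 1 lower (5.57% and 19.9% over all genes). HSP82, the inducible Hsp90, had 284 and 698 UMIs, or 4077 against 3602 CPM. BTN2, which sorts misfolded proteins, stood at 3245 and 3153 CPM. In both subclusters the list stood above that of MPA.1, at 23125 CPM, and of the DMSO and Guanine subclusters, from 7310 to 15268. The gene past 2-fold lower was SBA1, a cochaperone of Hsp90, with 42 and 319 UMIs and a ratio of -1.45. Chaperones of the endoplasmic reticulum differed from this, with a median of -0.78 over 6 genes. HAC1, the activator of the unfolded protein response, stood at -1.76 (-2.55 to -1.06), and KAR2, the Hsp70 of that compartment, at -1.44.

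**Figure D4:**
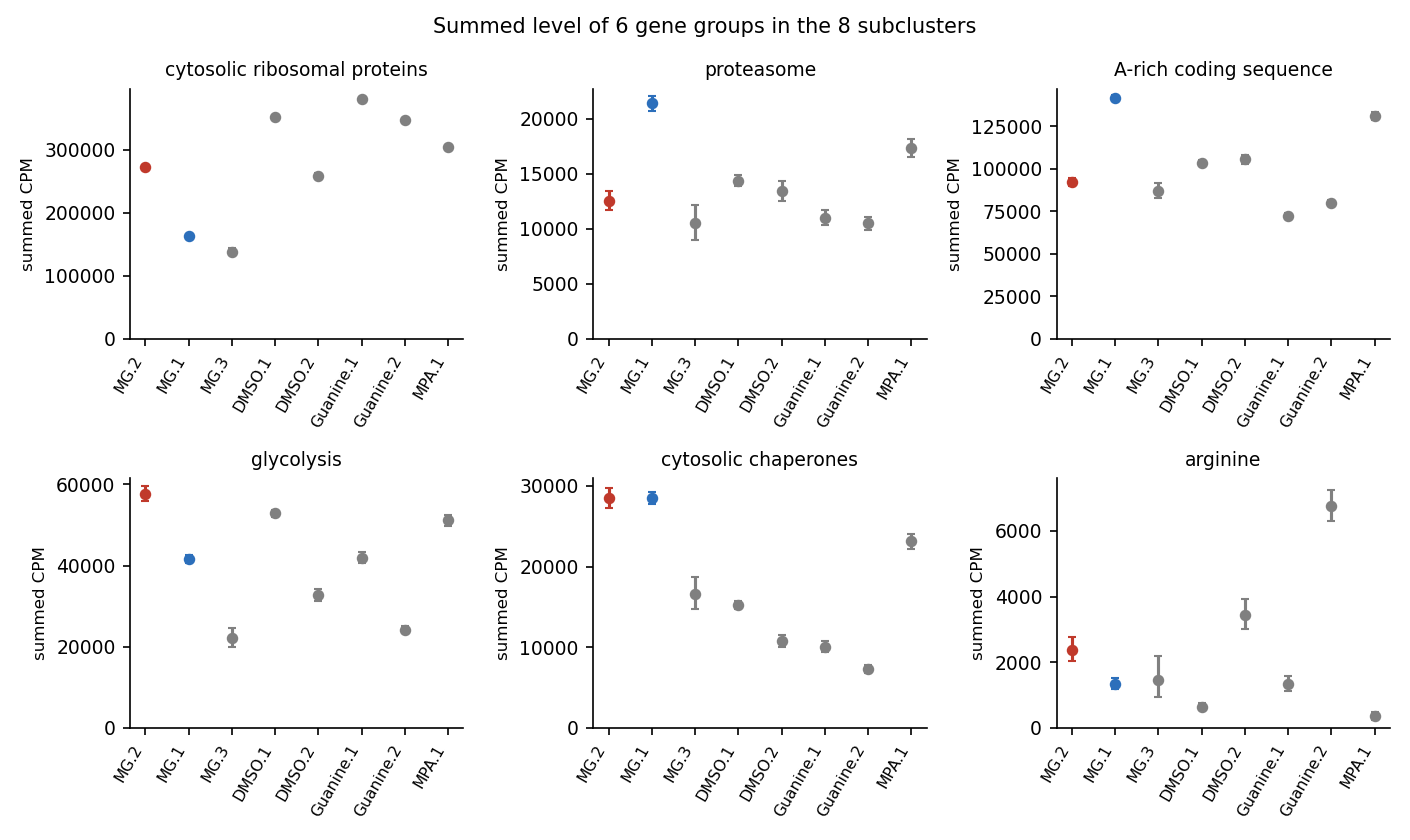
Summed CPM of 6 groups of genes in each of the 8 subclusters, with MG.2 in red and MG.1 in blue, points for the level and bars for the exact Poisson 95% interval, which covers counting error only. MG.2 stands with MG.1 for cytosolic chaperones (28527 and 28470 CPM) and apart from it for ribosomal proteins, the proteasome and genes with A-rich coding sequence. The panel of A-rich genes leaves out the transcripts that dominate MG.3.

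Other lists had fewer genes, and their counts are read beside the 19.9% of all genes past 2-fold lower. The iron regulon, genes induced when iron is scarce, had a median of -0.93 over 9 genes with 3 past 2-fold lower, and FIT3, a cell wall protein that retains iron carriers, stood at -1.52 with 13 and 104 UMIs. Ergosterol synthesis stood at -0.47 over 9 genes and oxidative phosphorylation at -0.52 over 16, with 5 past 2-fold lower, of which STF2 had the lowest ratio, -2.50, from 4 and 63 UMIs.

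The genes lowest in MG.2 among those with at least 100 UMIs came from many roles. HRP1, a factor of mRNA cleavage and export, had 14 UMIs in MG.2 and 384 in MG.1, or 201 against 1982 CPM, with a log2 ratio of -3.30 (-4.19 to -2.54). It was found in 11 of 77 MG.2 cells (14.3%, exact binomial interval 7.35% to 24.1%) and in 128 of 166 MG.1 cells (77.1%, 70.0% to 83.3%), and at 400 UMIs per cell in 8% and 47.8%. STT4, a kinase of phosphatidylinositol, had 15 and 374 UMIs and a ratio of -3.16 (-4.02 to -2.42), and is also on the list of transcripts that dominate MG.3. STH1, the motor of the chromatin remodeler RSC, had 4 and 100 (-3.17, -5.07 to -1.77). VPS4, an ATPase of endosomal sorting, stood at -2.54 with 7 and 113 UMIs, and the bromodomain gene BDF1 at -2.11 with 10 and 120.

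Between libraries HRP1 was scarce in more than MG.2. Its level was 156 CPM in Guanine.1 and 291 in Guanine.2, near the 201 of MG.2, and 620, 819 and 953 CPM in DMSO.1, DMSO.2 and MPA.1. MG.1, at 1982, was the highest of the 8. For RPN2 the order was similar, from 249 CPM in Guanine.2 to 1600 in MG.1.

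Many of the lower genes had long or A-rich coding sequences. Among the 216 genes at least 2-fold lower outside the ribosome with a coding sequence, the median coding length was 1425 bases, against 990 for the 23 higher and 872 for the 730 past 2-fold in neither direction. A coding sequence with at least 15 A in some 20 bases in a row was held by 78 of those 216 genes (36.1%), by 1 of the 23 higher genes (4.35%) and by 115 of the 730 others (15.8%). The 1 higher gene was NKP1. The window and the limit of 15 were chosen after the data were seen.

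The median ratio was lower the more A the richest stretch held. Genes outside the ribosome with at most 11 A in any 20 bases had a median log2 ratio of -0.03 (176 genes), those with 12 A -0.13 (198), with 13 A -0.40 (212), with 14 A -0.42 (189), and with at least 15 A -0.83 (194). The share past 2-fold lower was 7.96%, 10.6%, 20.8%, 31.2% and 40.2% in the same order. The rank correlation over these 969 genes was -0.31 with the number of A, -0.22 with coding length and 0.17 with GC content, as descriptions over genes counted in the same cells of 1 library. The number of A and the length were themselves correlated, at 0.43.

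Genes of like length were also set side by side. Among genes under 1000 bases, the median was -0.03 with at most 11 A (144 genes) and -0.57 with at least 15 (58 genes), and among genes of 1000 to 2000 bases it was -0.10 (32 genes) and -0.69 (72 genes). Among those of at least 2000 bases, the 64 genes with at least 15 A stood at -1.24 and the 32 with 14 A at -0.86. Whether priming on such stretches had a part in these ratios was not tested.

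**Figure D5:**
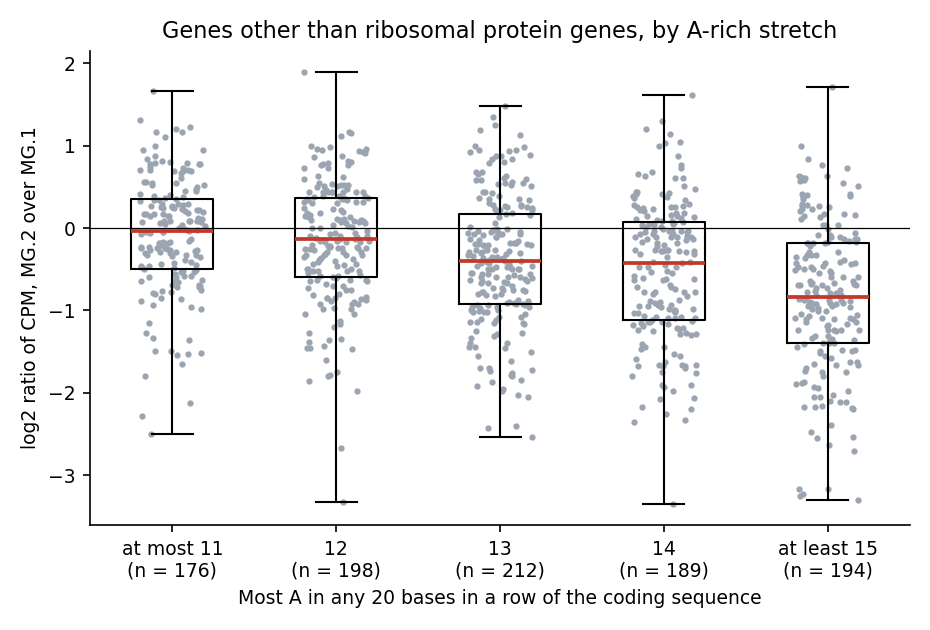
Log2 ratio of CPM of MG.2 over MG.1 for 969 genes other than ribosomal protein genes, grouped by the most A in any 20 bases in a row of the coding sequence, with 1 point a gene, boxes from the lower to the upper quartile, red medians and whiskers to the extremes. The medians step down from -0.03 for at most 11 A to -0.83 for at least 15.

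Cells could be read on the same measure. The share of a cell's UMIs on genes whose coding sequence holds at least 15 A in 20 had a median of 9.39% and a range of 6.45% to 12.7% in MG.2, and a median of 14.7% and a range of 10.1% to 35.8% in MG.1. The ranges overlapped between 10.1% and 12.7%. The median was 13.3% in MPA.1, 10.6% in DMSO.1, 11.4% in DMSO.2, 7.96% in Guanine.1, 8.58% in Guanine.2 and 19.7% in MG.3. These shares include A-rich transcripts that dominate MG.3. Without those transcripts the summed level of A-rich genes went from 245602 to 86978 CPM in MG.3 and from 166083 to 105331 in DMSO.2. In MG.2 it went from 94282 to 91898, and in MG.1 from 150753 to 141459. Within MG.2 the A-rich share of a cell had a rank correlation of -0.49 with the ribosomal protein share over 77 cells, and within MG.1 of -0.43 over 166, where shares of a fixed total tend to oppose each other.

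YNL143C carries the longest such run of the genes shown and had 76 UMIs in MG.2 and 1239 in MG.1, a log2 ratio of -2.55 (-2.90 to -2.22). It is also a transcript by which MG.3 is dominated. Its level was 110371 CPM in MG.3, 52036 in DMSO.2, 6394 in MG.1 and 6557 in Guanine.1, and MG.2, at 1091, was the lowest of the 8 subclusters. The 7 transcripts of that kind summed to 4924 CPM in MG.2, 12540 in MG.1 and 345346 in MG.3. In MG.2 0 of 77 cells had a gene with over 10% of their UMIs, with an exact binomial upper bound of 4.68%, and in MG.1 1 of 166 did.

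Markers of mating type and cell cycle were set beside these results. The MATa-specific genes summed to 1450 CPM in MG.2 and 1884 in MG.1, a summed log2 ratio of -0.38 (-0.71 to -0.06). The 1 gene of 4 specific to MATalpha cells that is in the matrix had 0 UMIs in MG.2 and 0 in MG.1. The upper bounds of the exact Poisson intervals were 52.96 CPM in MG.2 and 19.04 CPM in MG.1. Histone genes, which peak in S phase, summed to 6590 and 5362 CPM (0.30, 0.14 to 0.46), and G1/S genes to 689 and 810 (-0.23, -0.73 to 0.24). G2/M genes summed to 1594 and 2224 CPM (-0.48, -0.80 to -0.18), and genes of daughter cells and early G1 to 1335 and 1729 (-0.37, -0.72 to -0.04). As sums, histone genes were thus higher in MG.2 and G2/M genes lower beyond counting error. Of the G2/M list, however, only 3 genes were compared. Their median was -0.22, close to the -0.21 of all genes, and the highest of them stood at 0.03. The lowest was CDC5, the polo kinase of mitosis, with 4 UMIs in MG.2 and 62 in MG.1 (-2.48, -4.40 to -1.05). The part of cell cycle phase in the other ratios was not tested.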

How the data were processed

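The members and gene lists were chosen with earlier results of these data known. The deposited values are UMI counts per gene and cell, not normalized. The authors trimmed the reads with Trimmomatic, aligned them to R64-1-1 with STAR, counted with UMI-tools, filtered cells with scater and clustered each library with SC3. The authors also deposited principal component and UMAP scores per cell, made with Seurat.

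From the counts, UMIs were summed over the 77 MG.2 and the 166 MG.1 cells and scaled to CPM. Genes with at least 50 UMIs in both together were kept. With 1 library there is no test, and intervals at the 95% level (exact Poisson for levels, exact conditional for ratios, exact binomial for shares) cover counting error only. These steps were tested on simulated data. Positions and sequences came from the RefSeq annotation of the same assembly, in which 4606 of 4777 feature names were found. Near-identical copies came from blastn 2.17.0+ (at least 90% identity over 50% of the coding length). The rule for named genes took 15 genes at each end of the ratios, among those with at least 100 UMIs (not all are given here), the 4 most abundant members of each list and its members past 2-fold, genes the study lists for MG.2, genes whose ends face a named gene within 500 bases, and paralog partners. Genes chosen after their values were seen are said to be so.

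Motifs were searched on both strands within 300 bases before the coding start: Rap1 (CCCATACA, CCCGTACA), Hsf1 pair (TTCNNGAA), Hsf1 triple (that pair, NN and TTC), Msn2/4 (AGGGG), Rpn4 (GGTGGCAAA), Gcn4 (TGACTC), Yap1 (TTACTAA), PAC (GCGATGAG), RRPE (AAAAATTTT) and Gcr1 (CTTCC).

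Thinning drew 400 UMIs per cell without replacement with seed 1. Scrublet ran through scanpy 1.11.5 with 30 components and an expected rate of 0.05. For TMM, edgeR 4.0.16 (R 4.3.3) was used. All else ran in python 3.11.15 on pandas 2.3.3, numpy 2.4.6, scikit-learn 1.9.0, scipy 1.17.1 and, for plots, matplotlib 3.10.9. The alternatives were other scalings, other minimum UMIs, cells of matched or thinned depth, leaving out doublet calls or the deepest 5% of cells, MG.1 with MG.3 as comparator, and, added after the data were seen, leaving out genes with A-rich coding sequence.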

Additional observations from a re-analysis of the deposited data

How the results depend on the processing

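No paired analysis was possible because each condition has 1 library and the labels give no replicate numbers, and for the same reason no replicate could be left out. The count of genes at least 2-fold higher, 62, was 116 with TMM factors, 121 with totals without ribosomal protein genes, 128 with at least 20 UMIs and 237 with no minimum. The count lower, 221, was 640 with at least 20 UMIs, 955 with no minimum and 75 with at least 100 UMIs. It was 47 with cells thinned to 400 UMIs and 81 with cells of 400 to 1200 UMIs. Without the genes of at least 15 A in 20 bases, a setting chosen after seeing the data, it was 143 of 917 genes. That setting took out 196 genes, of which 78 were among the 221, so its count follows from the removal. The other settings left both counts within 1.5 times.

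The median log2 ratio of the ribosomal protein genes, 0.73, was 0.92 with TMM factors, 0.93 with totals without these genes, 0.79 with the mean of each cell's CPM, 0.80 with at least 100 UMIs, 0.82 with thinned cells, 0.79 with cells of 400 to 1200 UMIs, 0.78 without the 5% deepest cells and 0.79 without cells called by Scrublet. That of the proteasome, -0.80, was -0.61 and -0.59 under the first 2 scalings and -0.69 with cells of 400 to 1200 UMIs.

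Medians near 0 changed sign. TMM factors and totals without ribosomal protein genes move every ratio by the same amount. Under them the median of all genes went from -0.21 to -0.02 and -0.01, and the list medians moved with it. For the other settings the cause was not tested. With TMM factors, totals without ribosomal protein genes and without A-rich genes, initiation factors stood at 0.03, 0.04 and 0.11 and ribosome biogenesis at 0.03, 0.04 and 0.06. Glycolysis stood at -0.04 with no minimum. Fermentation stood at -0.01 with at least 100 UMIs and -0.07 with cells of 400 to 1200 UMIs, and quinone and redox genes at -0.09 and -0.20 under the same settings. General stress genes stood at 0.04 and 0.05 under the scalings, 0.02 with thinned cells, 0.07 with cells of 400 to 1200 UMIs and 0.00 without Scrublet calls, and purine synthesis at 0.08 and 0.09 under the scalings. Of the named genes, HXT2 stood at -0.07 with cells of 400 to 1200 UMIs.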

Other observations

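Genes that handle oxidants lay on both sides between MG.2 and MG.1. AHP1, a thiol peroxidase, had 947 UMIs in MG.2 and 3533 in MG.1, or 13596 against 18232 CPM. GLR1, the glutathione reductase, stood at a log2 ratio of 1.04, and AAD4, a putative aryl alcohol dehydrogenase, at 1.20. The list of thioredoxins and peroxiredoxins had a median of 0.33 over 10 genes with 1 past 2-fold each way, and summed to 30738 CPM in MG.2 and 31401 in MG.1. Over all genes, 5.57% were past 2-fold higher and 19.9% lower.

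Single subunits of the vacuolar proton pump also lay on both sides. VMA1, the catalytic subunit, had 8 UMIs in MG.2 and 92 in MG.1 (-2.05), and VMA7 stood at 1.11 with 31 and 40 UMIs. The list of 11 genes had a median of 0.28 with 1 higher and 2 lower past 2-fold, near the 5.57% and 19.9% of all genes. Its summed level was 7006 and 7090 CPM.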
